A study of Mus musculus with 10 samples.

Results

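The genes of mouse chromosome 8 were described in 6 groups of embryonic stem cells. A member is a gene whose probe lies on chromosome 8 in the array's mm9 coordinates, whose name is neither a bare genomic position nor a lincRNA region, and whose probe was well above background on all 10 arrays. Where several probes of a gene passed, the one with the highest mean log2 signal stood for it. This gave 862 members of the 1491 chromosome 8 gene names on the array, against 16124 genes detected on all arrays in the whole series and 14473 on the other autosomes. Of the 629 names that were not members, 347 were not well above background on any array. The dimmest members were the probes A_55_P1970604, ENSMUST00000034328 and Star, with mean levels of -3.80, -3.63 and -3.51. Just outside, on 9 arrays each, lay Acta1 at -0.42, Sdr42e1 at -1.52 and Nkx6-3 at -1.59. A level here is the log2 signal of a probe minus the 75th percentile of its array. Chromosome 8 was chosen with its differences between these lines already known, so its shift is given as a description with no test.

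J1, the wild-type control, was hybridised to 2 arrays, as were 3 other lines. PRDM14 denotes line JP-23, labelled as wild-type cells with stable Prdm14 expression. PRDM14_DNMT3B denotes line JP-23+3b-3, labelled as expressing Prdm14 together with Dnmt3b1. Dnmt3b_KO denotes line 8bb, which is Dnmt3b-/-. Dnmt1_KO, line 36, is Dnmt1-/-, and TKO, line 19-1, lacks Dnmt1, Dnmt3a and Dnmt3b; these gave 1 array each and have no replicates. Each group is 1 line, grown without feeder cells in serum and LIF, so line and genotype cannot be told apart. What promoter drives the transgenes was not given in the sources used. No label says that the 2 arrays of a line came from different cultures, and the p-values here therefore cover the spread between arrays alone, which may be technical.

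The probes of the targeted genes did not show the transgenes. The Prdm14 probe was at -0.08 and 0.09 in J1, -4.32 and -4.02 in the line labelled PRDM14, -6.35 and -6.42 in the line labelled PRDM14_DNMT3B, 1.18 and 1.15 in Dnmt3b_KO, 0.20 in Dnmt1_KO and 0.85 in TKO. It was thus lower, not higher, in both lines labelled as expressing Prdm14, and was well above background on 8 of 10 arrays. The Dnmt3b probe was at 7.60 and 7.57 in J1, at a mean of 5.02 in PRDM14, and at 4.09 and 4.17 in PRDM14_DNMT3B, 1.62 and 1.69 in Dnmt3b_KO, 7.65 in Dnmt1_KO and 1.99 in TKO. It was lower in PRDM14_DNMT3B than in PRDM14. Whether these probes match the transgene messages is not known here, so overexpression was not measured. The names PRDM14 and PRDM14_DNMT3B therefore stand throughout for the lines so labelled, and every direction given for them is that of the labelled line. The probes were low where the labels give a knockout. J1 had the Dnmt1 probe at 1.62 and 1.30, Dnmt1_KO at -2.68 and TKO at -3.15. For Dnmt3a the J1 arrays were at -0.18 and -0.34, and TKO was at -6.38.

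PRDM14 is a transcriptional regulator of naive pluripotency and germ cell fate that represses the de novo methyltransferases, and Dnmt1, Dnmt3a and Dnmt3b are the enzymes that maintain and set DNA methylation. The study set out to measure how the loss of methylation that follows PRDM14 overexpression affects expression. Chromosome 8 of the mouse carries genes of many unrelated functions, among them the pluripotency marker Zfp42, the adhesion gene Cdh1, the metallothioneins and the alpha-defensin cluster. In cultured mouse embryonic stem cells, chromosome 8 is also known as one of the chromosomes most often gained during passage. Copy number was not measured on these arrays, and its part in the results was not tested.

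Across the 10 arrays, 50.03% to 56.03% of spots were well above background and 0 spots were saturated, and the small number of arrays limits the precision. Over the members, the arrays of a line correlated at 0.9947 to 0.9983. All 6 embryonic stem cell markers were above background on all arrays, with a log2 summed level from 7.60 in Dnmt1_KO to 8.82 in PRDM14. The J1 arrays lay at 8.03 and 8.08. These markers include Zfp42, itself a chromosome 8 member, at a mean of 6.16 in J1 and 7.13 in PRDM14. Pou5f1 was at 5.99 and 5.93 in the same lines. Of 4 primitive endoderm markers, 0 were above background on all arrays, and their log2 summed level was -1.82 and -1.80 in J1 and 0.61 in TKO.

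Sequences upstream of 3 members are shown because the members lie in the first, the middle and the last part of the chromosome as the TKO values divide it. Each is the 250 bases before the RefSeq start on GRCm38.p6, on the minus strand, with every CG dinucleotide in capitals. They are chr8:4325101-4325350 for Elavl1, which encodes an RNA-binding protein that stabilises messages, chr8:43307010-43307259 for Zfp42, which encodes the zinc finger protein REX1, and chr8:116993499-116993748 for Gcsh, which encodes the H protein of the glycine cleavage system.
Elavl1: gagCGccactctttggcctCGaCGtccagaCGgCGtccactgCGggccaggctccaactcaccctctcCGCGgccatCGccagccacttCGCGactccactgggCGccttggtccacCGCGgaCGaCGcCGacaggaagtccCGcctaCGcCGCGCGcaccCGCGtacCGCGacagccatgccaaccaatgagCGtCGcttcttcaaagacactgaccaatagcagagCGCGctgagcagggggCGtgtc
Zfp42: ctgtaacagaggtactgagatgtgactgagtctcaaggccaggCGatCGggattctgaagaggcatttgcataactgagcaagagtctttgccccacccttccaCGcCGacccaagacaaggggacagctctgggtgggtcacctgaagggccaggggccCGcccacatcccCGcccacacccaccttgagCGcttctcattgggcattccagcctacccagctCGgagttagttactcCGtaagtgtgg
Gcsh: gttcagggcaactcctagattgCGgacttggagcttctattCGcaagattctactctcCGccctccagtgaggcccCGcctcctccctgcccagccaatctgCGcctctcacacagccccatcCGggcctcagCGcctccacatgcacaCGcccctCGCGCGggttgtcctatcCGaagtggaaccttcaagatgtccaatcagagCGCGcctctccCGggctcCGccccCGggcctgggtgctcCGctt
CG was searched on both strands, where it reads the same. It occurred 31 times upstream of Elavl1, 9 times upstream of Zfp42 and 18 times upstream of Gcsh. Of the 32851 upstream windows in the table, 92.13% held at least 1 CG and the median was 6.0. At least as many CG as in these 3 windows were found in 5.19%, 40.33% and 21.67% of them. Methylation of these windows was not measured on the arrays.

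On chromosome 8 as a whole, the members were higher in both lines labelled PRDM14 and in TKO than in J1, and were near the level of the other autosomes in the single Dnmt3b_KO and Dnmt1_KO lines. The shift is the median log2 difference of the 862 members minus that of the 14473 genes of the other autosomes. It was 0.46 in PRDM14, a 1.37-fold difference, 0.41 in PRDM14_DNMT3B, a 1.33-fold difference, and 0.24 in TKO, a 1.18-fold difference. In Dnmt3b_KO it was 0.02 and in Dnmt1_KO -0.03. With no filter on dim probes the shift was 0.168 in PRDM14_DNMT3B and 0.136 in TKO. Of the 19 autosomes, chromosome 8 had the largest shift by size in PRDM14 and in PRDM14_DNMT3B, where the other 18 ran from -0.11 to 0.12 and from -0.10 to 0.13. In TKO against J1 it was also the largest, though chromosome 14 came close with 0.22. In TKO against Dnmt3b_KO and against Dnmt1_KO, chromosome 14 was at -0.02 and 0.05, beside 0.21 and 0.21 on chromosome 8. In Dnmt3b_KO and Dnmt1_KO against J1, chromosome 8 ranked 7 and 11. The largest shifts in these lines were 0.14 on chromosome 14 and 0.22 on chromosome 11.

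**Figure D1:**
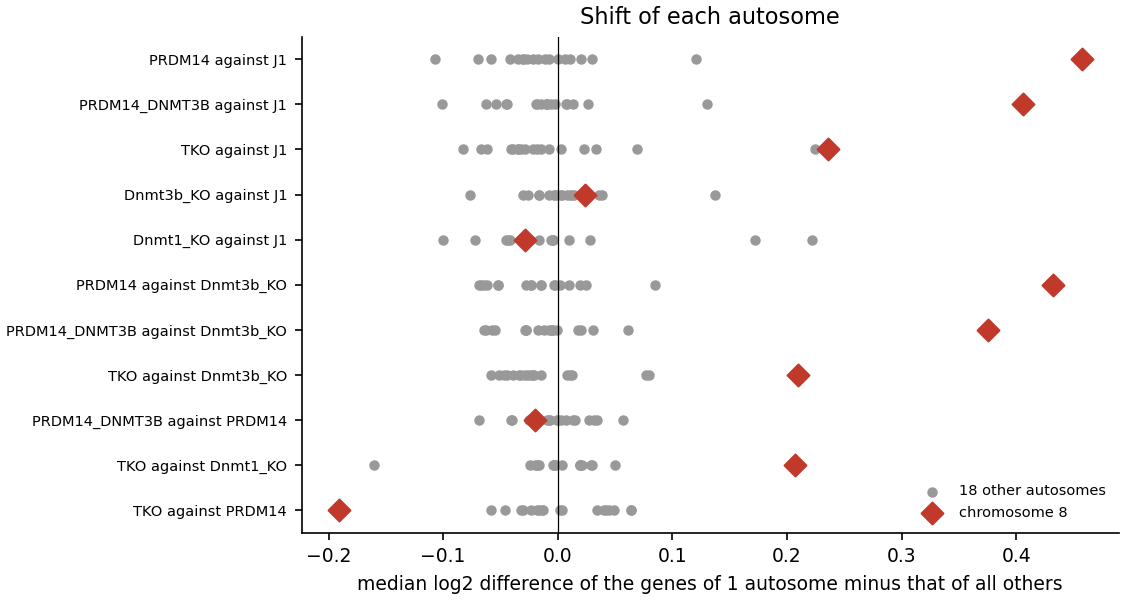
The x axis gives the median log2 difference of the genes of 1 autosome minus that of all others, for 11 comparisons on the y axis; red diamonds are chromosome 8 and grey points are the 18 other autosomes. Chromosome 8 lies at 0.46 and 0.41 in the PRDM14 lines against J1, apart from the grey points, and at 0.24 in TKO beside chromosome 14 at 0.22.

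The calls of single genes come from limma at a Benjamini-Hochberg adjusted p under 0.05 over all 23787 rows tested. In PRDM14 against J1, 450 members were higher and 80 lower, where 21.3% of the genes of the other autosomes were called higher and 21.3% lower. The members' shares were 52.2% and 9.28%. In PRDM14_DNMT3B, 388 were higher and 77 lower, or 45.0% and 8.93%, beside 20.5% and 22.1% on the other autosomes. In TKO, 202 were higher and 86 lower, or 23.4% and 9.98%, beside 12.3% and 17.7%. In Dnmt3b_KO, 94 were higher and 83 lower, beside 12.5% and 11.3%, and the shares of members, 10.9% and 9.63%, were close to these. In Dnmt1_KO, 78 were higher and 178 lower, beside 11.6% and 18.2%. The differences from J1 share the 2 J1 arrays.

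In the PRDM14 lines the differences were spread over most members. In PRDM14 against J1, 640 of the members, or 74.3%, lay above the median of the other autosomes, 649 did so in PRDM14_DNMT3B and 576 in TKO. More than 2-fold higher than that median were 169 members, or 19.6%, in PRDM14, against 6.79% of the genes of the other autosomes. More than 2-fold lower were 28 members, or 3.25%, against 7.04%. Once the chromosome's own shift was subtracted, 54 members were more than 2-fold above it and 60 more than 2-fold below it.

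Set against Dnmt3b_KO instead of J1, the shift was 0.43 in PRDM14, 0.38 in PRDM14_DNMT3B and 0.21 in TKO. Here 477 members were higher and 72 lower in PRDM14, beside 21.3% and 18.1% of the other autosomes, and 403 were higher and 61 lower in PRDM14_DNMT3B, beside 15.8% and 15.9%. In TKO, 161 were higher and 53 lower, beside 7.51% and 10.1%. With no filter on dim probes the shifts of PRDM14_DNMT3B and TKO from Dnmt3b_KO were 0.116 and 0.046. The lines labelled PRDM14_DNMT3B and PRDM14, set against each other, gave a shift of -0.02 (-0.104 with no filter), with 88 members higher and 105 lower, beside 11.5% and 11.6%. TKO against Dnmt1_KO, both on slide 1 and in the same scan pass, gave a shift of 0.21, with 167 members higher and 19 lower, beside 3.35% and 4.24%. TKO against PRDM14 gave -0.19, with 97 members higher and 326 lower, beside 15.4% and 22.3%.

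The 10 arrays were read one by one. Relative to each gene's mean over the 10 arrays, and minus the same median over the other autosomes, the median of the members was -0.22 and -0.19 in the 2 J1 arrays, 0.26 and 0.26 in PRDM14, and 0.20 and 0.23 in PRDM14_DNMT3B. It was -0.18 and -0.19 in Dnmt3b_KO, -0.21 in Dnmt1_KO and 0.08 in TKO. The pooled SD between arrays of a line was 0.0137. The 5 arrays of J1, Dnmt3b_KO and Dnmt1_KO lay together, with Dnmt1_KO inside the range of J1. The 4 arrays of the PRDM14 lines were higher, and TKO lay between. PRDM14_DNMT3B shared its slides with J1 and Dnmt3b_KO, and its shift from J1 was 0.42 within slide 1 and 0.42 within slide 2. Each PRDM14 array was the only one on its slide, and for PRDM14 the slide cannot be told apart from the line.

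**Figure D2:**
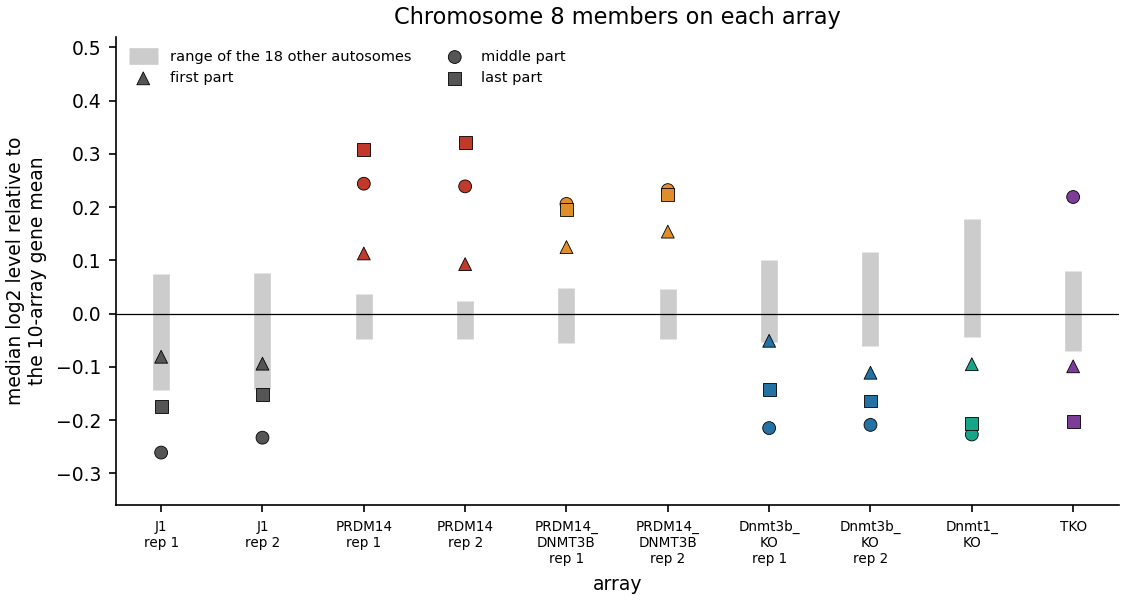
For each of the 10 arrays on the x axis, the y axis gives the median log2 level of the members of the first (triangles), middle (circles) and last (squares) part of chromosome 8 relative to the 10-array mean of each gene, minus the median of the other autosomes; grey bars span the 18 other autosomes. In TKO the middle part stands at 0.22 while the first and last parts stand at -0.10 and -0.20, near Dnmt1_KO.

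Along the chromosome, the TKO members were higher over the middle part only. The least-squares split of TKO against J1 into 3 stretches, each of at least 20 members, put the borders between Adprhl1 at 13.24 Mb and Dcun1d2 at 13.26 Mb, and between Rpgrip1l at 93.74 Mb and 4831440D22Rik at 93.97 Mb of mm9. Over the 478 members between these borders, the median difference beyond the other autosomes was 0.46, a 1.38-fold difference. It was 0.03 over the 67 members before them and -0.04 over the 317 members after them. The split was chosen on these values, and its medians are therefore a description. It took up 15.01% of the variance of the members' differences. The calls come from the same differences that placed the borders, so their counts by part are a description too. Called higher in TKO were 10 of 67 members, or 14.9%, in the first part and 168 of 478, or 35.2%, in the middle. In the last part they were 24 of 317, or 7.57%, beside the 12.3% of the other autosomes.

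The borders moved somewhat with the reference, and the same TKO array enters each of them. Against Dnmt1_KO they fell between Cars2 at 11.52 Mb and Ing1 at 11.56 Mb and between Gm3134 at 91.58 Mb and A_55_P2148744 at 91.67 Mb, with 19.51% of the variance. Against Dnmt3b_KO they fell at 26.71 Mb and 96.68 Mb, with 15.14%. The distal border thus lay between 91.58 Mb and 97.10 Mb in every TKO comparison, and the proximal one between 11.52 Mb and 26.71 Mb. At the proximal border, Adprhl1 differed from J1 by 0.09 in TKO (adjusted p 0.825, limma) and its neighbour Dcun1d2, an activator of cullin neddylation, by 0.46 (adjusted p 0.0286, limma). At the distal border, Rpgrip1l, a gene of the primary cilium, differed by 0.55 (adjusted p 0.243) and 4831440D22Rik by -0.63 (adjusted p 0.119), and neither passed in limma. Both distal probes were dim, with mean levels of -2.08 and -2.94.

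In the PRDM14 lines the members' difference from J1 ran past both borders. In PRDM14 the median was 0.19 in the first part, 0.50 in the middle and 0.45 in the last, and in PRDM14_DNMT3B it was 0.18, 0.47 and 0.36. These lines were not used to place the borders. The first part had 43 of 67 members above the median of the other autosomes in PRDM14, the middle 355 of 478 and the last 242 of 317. In bins of 10 Mb with at least 10 members, 12 of 13 bins of chromosome 8 lay above 0.18 in PRDM14, the 95th percentile of 236 such bins of the other autosomes. In PRDM14_DNMT3B 11 of 13 lay above their 95th percentile of 0.16, in TKO 8 of 13 and in Dnmt1_KO 0 of 13.

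TKO and PRDM14 met in the middle part and parted in the last. TKO against PRDM14 gave a median of 0.02 over the middle 478 members and -0.55 over the last 317. In the last part 180 members, or 56.8%, were called lower in TKO than in PRDM14. This stands beside 22.3% on the other autosomes and 25.1% in the middle part. The borders were placed on the values of the same TKO array, so the contrast between the parts is a description too. In the first part the median was -0.24, with 26 of 67 called lower.

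**Figure D3:**
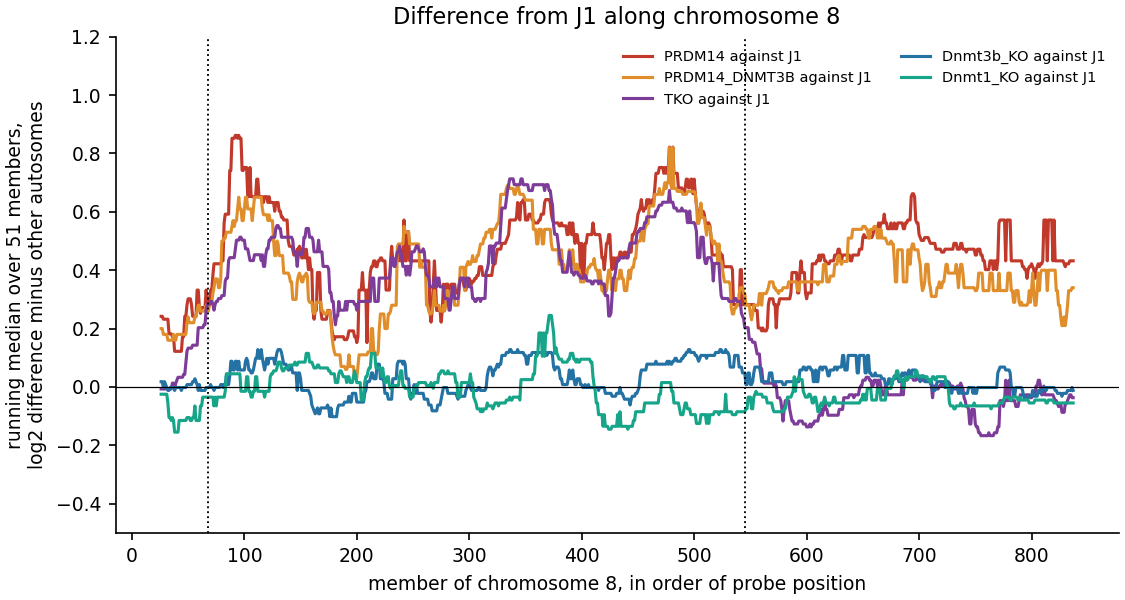
The x axis orders the 862 members by probe position and the y axis gives the running median over 51 members of the log2 difference from J1, minus the median of the other autosomes; dotted lines mark the borders of the middle part. The PRDM14, PRDM14_DNMT3B and TKO lines run close together between the borders, where their medians are 0.50, 0.47 and 0.46, and TKO drops to -0.04 after the distal border.

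The members differed among themselves by what their probes name. RefSeq places a protein-coding gene on chromosome 8 for the accessions of 646 members. The other 216 carry mostly predicted transcripts, pseudogene names and probe identifiers that the table did not match. In PRDM14 against J1, the shift of the 646 coding members from the 10693 coding genes of the other autosomes was 0.52, a 1.44-fold difference. The other 216 members shifted by 0.09 from the 3780 genes of their kind. In PRDM14_DNMT3B these values were 0.47 and 0.09, and in TKO 0.28 and 0.08. The split by accession was made after the values of single members were seen.

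Of the coding members, 388, or 60.1%, were called higher in PRDM14, beside 23.4% of coding genes elsewhere, and 62 of the other members, or 28.7%, beside 15.2% of their kind. In PRDM14_DNMT3B the shares were 53.7% and 19.0%, beside 23.4% and 12.1%, and in TKO 27.7% and 10.6%, beside 14.3% and 6.64%. In PRDM14 the spread of the coding members was like that of coding genes elsewhere, with interquartile ranges of 0.705 and 0.715 log2 units. It was wider in PRDM14_DNMT3B, with 0.74 against 0.698, and in TKO, with 0.748 against 0.62. Within the middle part, coding members were 0.51 higher in TKO, and in the last part -0.05. In Dnmt3b_KO and Dnmt1_KO the coding members shifted by 0.03 and -0.05.

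**Figure D4:**
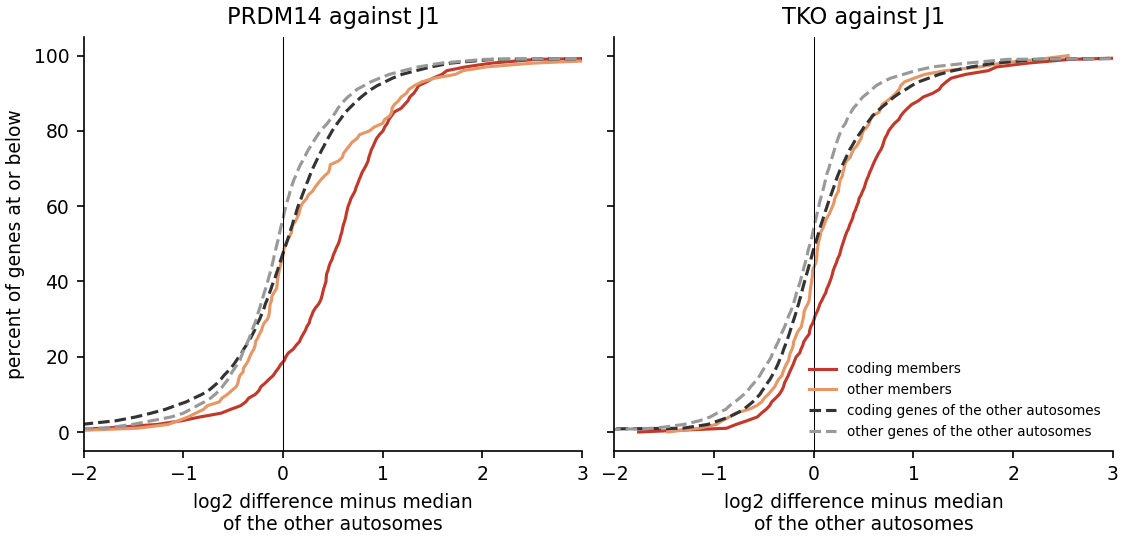
Cumulative share of genes (y axis, percent) at or below each log2 difference from J1 minus the median of the other autosomes (x axis), for PRDM14 on the left and TKO on the right; solid lines are chromosome 8 and dashed lines the other autosomes. In PRDM14 the curve of the 646 coding members is displaced by 0.52 with an interquartile range of 0.705 against 0.715, whereas that of the other 216 members runs closer to the dashed lines.

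Other probes of the same chromosome were read as well. For 151 members a second probe was detected on all arrays, and over these the shift was 0.56 in PRDM14, 0.51 in PRDM14_DNMT3B and 0.35 in TKO. Their TKO medians in the first, middle and last part were 0.03, 0.53 and -0.03, which is the order seen with the first probes. The second probes read the same genes on the TKO array that placed the borders, so this order is not a separate result. The 141 intergenic transcripts detected on all arrays shifted by 0.15, 0.18 and 0.19 in the same lines. In TKO those of the middle part shifted by 0.24 and those of the last part by -0.06. In PRDM14 these values were 0.28 and 0.05, and in PRDM14_DNMT3B 0.27 and -0.02. The fall of the intergenic transcripts in the last part was thus not particular to TKO.

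The rule for landmarks took the member with the highest mean level in each 10 Mb bin, and most of these 13 were pseudogenes or unnamed probes. Rps6-ps2, a copy of a ribosomal protein gene at 91.33 Mb, stayed between 9.28 and 9.58 on all 10 arrays, and its groups overlapped. Gm10063 at 37.09 Mb ran from 9.70 to 10.05, also with overlapping groups. Probes of such copies can share signal with the parent gene and with other copies elsewhere in the genome, so their place on chromosome 8 is uncertain. F10 at 13.06 Mb, named for a coagulation factor, ran from 10.28 to 10.83 with no call in PRDM14, PRDM14_DNMT3B or TKO against J1.

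Coding landmarks, the coding member of highest mean level in each bin, were chosen after the values were seen. F10 is one of them. Eif4ebp1 at 28.39 Mb, which encodes a repressor of cap-dependent translation, was at 6.68 and 6.47 in J1, 7.26 and 7.14 in PRDM14, 7.30 and 7.13 in PRDM14_DNMT3B, 6.25 and 6.15 in Dnmt3b_KO, 6.47 in Dnmt1_KO and 7.14 in TKO. All 5 arrays of the PRDM14 lines and TKO were above the other 5. Its differences from J1 were 0.63, 0.64 and 0.56 log2 units, with adjusted p of 0.0085, 0.00789 and 0.0344 from limma. The PRDM14 call ended without PRDM14 replicate 1, and the TKO call without J1 replicate 2 or any PRDM14 or Dnmt3b_KO array. Ddx39a at 86.25 Mb, an RNA helicase of messenger RNA export, rose by 0.43 and 0.49 in the PRDM14 lines (adjusted p 0.0188 and 0.0112, limma), and differed by 0.22 in TKO (adjusted p 0.244, limma). Its call in PRDM14 ended without J1 replicate 1 or either PRDM14 array, and in PRDM14_DNMT3B without J1 replicate 1 or PRDM14_DNMT3B replicate 2. Elavl1 at 4.29 Mb, outside the middle part, differed by 0.25, 0.11 and -0.17 in PRDM14, PRDM14_DNMT3B and TKO, and none of these passed in limma.

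The members were then grouped by role in 11 lists of 171 names, of which 145 are members. A list's median is the plain log2 difference from J1, beside -0.03 for the other autosomes and 0.43 for all members in PRDM14, and beside -0.07 and 0.34 in PRDM14_DNMT3B. The counts stand beside the shares called higher against J1, which were 21.3% on the other autosomes, 52.2% of all members and 60.1% of coding members in PRDM14, 20.5%, 45.0% and 53.7% in PRDM14_DNMT3B, and 12.3%, 23.4% and 27.7% in TKO. A list near the members' share, such as chromatin or proteasome in PRDM14, is not set apart from the chromosome by its count, and no list was tested against the other members. Genes of DNA replication, repair and telomeres had 14 of 19 members higher and 0 lower in PRDM14, 9 and 0 in PRDM14_DNMT3B, and 5 and 0 in TKO. Their median was 0.55 in PRDM14. Mcm5 at 77.65 Mb, a subunit of the replicative helicase, was at 5.69 and 5.56 in J1, 6.44 and 6.37 in PRDM14, 6.14 and 6.17 in PRDM14_DNMT3B, 5.55 and 5.51 in Dnmt3b_KO, 5.28 in Dnmt1_KO and 6.21 in TKO. The PRDM14 lines and TKO did not overlap the others. Its difference from J1 was 0.78 (SE 0.08) in PRDM14 and 0.58 (SE 0.10) in TKO, with adjusted p of 0.00111 and 0.0116 from limma.

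Cdt1 at 125.10 Mb, which loads that helicase at origins, lies in the last part. Its levels were 6.30 and 6.38 in J1, 7.04 and 7.02 in PRDM14, 6.68 and 6.86 in PRDM14_DNMT3B, 6.15 and 6.27 in Dnmt3b_KO, 5.75 in Dnmt1_KO and 6.03 in TKO. Only the 4 arrays of the PRDM14 lines were above J1. It rose by 0.69 in PRDM14 (adjusted p 0.00325, limma), and TKO against PRDM14 gave -1.01 (adjusted p 0.0022, limma).

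Cell cycle and centromere genes had 8 of 12 members higher and 0 lower in PRDM14, 7 and 0 in PRDM14_DNMT3B, and 2 higher and 1 lower in TKO. Tfdp1, the dimerisation partner of E2F factors, lies at 13.38 Mb just inside the proximal border. It rose from 2.37 and 2.50 in J1 to 3.56 and 3.42 in PRDM14, by 1.06 (SE 0.11, adjusted p 0.001, limma). In TKO it was at 2.82, a difference of 0.38 that did not pass (adjusted p 0.0926, limma).

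Chromatin and transcription regulators had 11 of 18 members higher and 1 lower in PRDM14, 10 and 1 in PRDM14_DNMT3B, and 3 and 1 in TKO. Ash2l at 26.93 Mb, a core subunit of the H3K4 methyltransferase complexes, was at 4.91 and 4.84 in J1, 6.40 and 6.52 in PRDM14, 6.75 and 6.80 in PRDM14_DNMT3B, 5.20 and 5.28 in Dnmt3b_KO, 4.84 in Dnmt1_KO and 5.36 in TKO. It rose by 1.58 and 1.90 in the PRDM14 lines (SE 0.09 for both, adjusted p 0.000116 and 7.73e-05, limma). These are several times the chromosome's own shift. Hmgb2 at 59.99 Mb, a chromatin protein of dividing cells, rose by 0.50 in PRDM14 (adjusted p 0.0171, limma), a call that ended when any 1 of the J1 or PRDM14 arrays was left out. The member that fell, Hmgxb4 at 77.56 Mb, went from 3.95 and 4.27 in J1 to 2.45 and 2.49 in PRDM14 and to 1.96 and 1.81 in PRDM14_DNMT3B, by -1.64 and -2.22 (adjusted p 0.000419 and 0.000164, limma).

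The pluripotency and early embryo list had 3 of 9 members higher and 1 lower in PRDM14, and 4 higher and 1 lower in PRDM14_DNMT3B and in TKO. Zfp42 at 44.38 Mb was at 6.11 and 6.21 in J1, 7.17 and 7.08 in PRDM14, 7.15 and 7.17 in PRDM14_DNMT3B, 5.98 and 5.95 in Dnmt3b_KO, 5.50 in Dnmt1_KO and 6.73 in TKO. The order was PRDM14 lines, then TKO, then J1, with Dnmt1_KO lowest. It rose by 0.97 and 1.00 in the PRDM14 lines and by 0.57 in TKO, and fell by 0.66 in Dnmt1_KO, with adjusted p of 0.000456, 0.00042, 0.0114 and 0.00771 from limma. Its upstream sequence is the one printed above with 9 CG.

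Cdh1 at 109.19 Mb, which encodes E-cadherin, was the member of that list that fell in the PRDM14 lines. It was at 4.10 and 4.24 in J1, 3.11 and 3.29 in PRDM14, 2.84 and 2.96 in PRDM14_DNMT3B, 4.09 and 4.20 in Dnmt3b_KO, 4.24 in Dnmt1_KO and 3.81 in TKO. The 4 arrays of the PRDM14 lines were below all others. The differences were -0.98 and -1.27 (SE 0.11 for both), with adjusted p of 0.00129 and 0.000503 from limma.

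The mitochondria and metabolism list had 13 of 16 members higher and 0 lower in PRDM14, 7 higher and 1 lower in PRDM14_DNMT3B, and 5 and 1 in TKO. Slc25a4 at 47.29 Mb, the mitochondrial ADP/ATP carrier, set the PRDM14 lines apart from each other. Its levels were 7.92 and 7.86 in J1, 8.69 and 8.83 in PRDM14, 7.09 and 7.18 in PRDM14_DNMT3B, 7.38 and 7.42 in Dnmt3b_KO, 6.91 in Dnmt1_KO and 7.52 in TKO. PRDM14 was above J1 and every other line was below it. The differences from J1 were 0.87 and -0.76 in PRDM14 and PRDM14_DNMT3B (adjusted p 0.000916 and 0.0016, limma).

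Aprt at 125.10 Mb, an enzyme of adenine salvage, parted TKO from PRDM14 in the last part. It was at 6.80 and 6.70 in J1, 7.59 and 7.53 in PRDM14, 6.73 and 6.71 in PRDM14_DNMT3B, 6.50 and 6.40 in Dnmt3b_KO, 6.05 in Dnmt1_KO and 5.83 in TKO. It rose by 0.81 in PRDM14 (adjusted p 0.00093, limma) and fell by 0.92 in TKO (adjusted p 0.0026, limma).

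Genes of RNA processing and translation had 15 of 21 members higher and 1 lower in PRDM14, 14 and 1 in PRDM14_DNMT3B, and 5 and 1 in TKO, with a median of 0.54 in PRDM14. The list of proteasome, ubiquitin and vesicle genes had 10 of 16 higher and 0 lower in PRDM14, 8 and 0 in PRDM14_DNMT3B, and 1 higher and 2 lower in TKO. Usp10 at 122.48 Mb, a deubiquitinase, was at 5.01 and 5.10 in J1, 5.91 and 5.98 in PRDM14, 5.72 and 5.66 in PRDM14_DNMT3B, 5.01 and 5.05 in Dnmt3b_KO, 4.49 in Dnmt1_KO and 4.30 in TKO. The PRDM14 lines lay above J1 and the arrays of Dnmt1_KO and TKO below it. It rose by 0.89 in PRDM14 and fell by 0.75 in TKO (adjusted p 0.000611 and 0.00451, limma). Calr at 87.37 Mb, the chaperone calreticulin of the endoplasmic reticulum, lies inside the middle part and rose by 0.79, 0.76 and 0.62 in PRDM14, PRDM14_DNMT3B and TKO (adjusted p 0.00407, 0.00468 and 0.0286, limma). The TKO call ended when J1 replicate 2, either PRDM14 array or either Dnmt3b_KO array was left out.

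Of the 3 AP-1 and immediate early genes, 2 were higher in each PRDM14 line and 1 in TKO. Jund at 73.22 Mb, a constitutive AP-1 subunit, was at 4.48 and 4.29 in J1, 5.32 and 5.39 in PRDM14, 5.28 and 5.14 in PRDM14_DNMT3B, 4.72 and 4.55 in Dnmt3b_KO, 4.49 in Dnmt1_KO and 5.53 in TKO. The PRDM14 lines and TKO were apart from the rest, by 0.97, 0.83 and 1.15 from J1 (adjusted p 0.00155, 0.00285 and 0.00347, limma). Ier2, an immediate early gene at 87.19 Mb, rose by 0.91 and 0.86 in the PRDM14 lines (adjusted p 0.000793 and 0.000966, limma). Junb, another AP-1 subunit at 87.50 Mb, ran from -3.24 to -2.21 with overlapping groups and was not called.

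The metallothionein and oxidative stress list stood differently against J1 and against Dnmt3b_KO. Against J1 it had 4 of 10 members higher and 2 lower in PRDM14, with a median of 0.04, 3 higher and 1 lower in PRDM14_DNMT3B, and 3 and 3 in TKO, where its median was 0.37 beside 0.11 for all members. Against Dnmt3b_KO it had 8 higher and 1 lower in PRDM14, with a median of 0.56 beside 0.49 for all members, and 5 and 0 in PRDM14_DNMT3B, with 0.41 beside 0.41. Of all members, 55.3% were called higher than Dnmt3b_KO in PRDM14 and 46.8% in PRDM14_DNMT3B, beside 21.3% and 15.8% on the other autosomes. Mt1 at 96.70 Mb, which encodes a metal-binding protein, was at 8.45 and 8.17 in J1, 7.14 and 7.22 in PRDM14, 8.23 and 8.02 in PRDM14_DNMT3B, 8.73 and 8.48 in Dnmt3b_KO, 7.42 in Dnmt1_KO and 8.88 in TKO. PRDM14 and Dnmt1_KO were low and the other lines overlapped J1 or lay above it. Its differences from J1 were -1.13 in PRDM14 and -0.89 in Dnmt1_KO (adjusted p 0.00215 and 0.0178, limma). Gcsh at 119.51 Mb, whose upstream window held 18 CG, rose from 6.65 and 6.55 in J1 to 7.42 and 7.52 in PRDM14, by 0.87 (adjusted p 0.000845, limma), and was at 6.23 in TKO. The TKO call against J1 (-0.38) ended without any 1 of the replicated arrays, whereas TKO against PRDM14 gave -1.25 (adjusted p 0.000686, limma).

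Growth factor and insulin signalling genes had 7 of 13 members higher and 1 lower in PRDM14, 5 and 3 in PRDM14_DNMT3B, and 4 and 3 in TKO. Irs2 at 11.00 Mb, an adaptor of the insulin receptor, was at 3.64 and 3.41 in J1, 2.55 and 2.40 in PRDM14, 2.77 and 2.65 in PRDM14_DNMT3B, 3.91 and 3.73 in Dnmt3b_KO, 3.49 in Dnmt1_KO and 1.70 in TKO. The PRDM14 lines and TKO were all below the other lines. It fell by 1.05, 0.82 and 1.82 (adjusted p 0.00156, 0.004 and 0.00114, limma). Dusp4 at 35.88 Mb, a phosphatase that acts on ERK and is induced by it, moved in opposite directions in the PRDM14 lines from J1, which was at 2.74 and 2.67. Both PRDM14 arrays were above J1, by 0.40 on average (adjusted p 0.0119, limma), a call that ended without J1 replicate 2 or either PRDM14 array. PRDM14_DNMT3B was at 2.18 and 2.07 and TKO at 1.77, with differences of -0.58 and -0.93 (adjusted p 0.00301 and 0.00223, limma).

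The differentiated lineage list had 8 members of 22 names, so most of its genes were not detected on all arrays. In PRDM14 2 were higher and 3 lower, in PRDM14_DNMT3B 3 and 2, and in TKO 5 and 1. Vegfc at 55.27 Mb, a lymphatic growth factor, rose from 1.30 and 1.07 in J1 to 2.77 and 2.83 in PRDM14, 3.55 and 3.42 in PRDM14_DNMT3B and 2.41 in TKO, by 1.61, 2.30 and 1.22 (adjusted p 0.000198, 7.71e-05 and 0.00218, limma). Col4a1 at 11.20 Mb, a basement membrane collagen, went the other way in the PRDM14 lines, from -1.37 and -1.61 in J1 to -2.81 and -2.87 in PRDM14 and -2.28 and -2.12 in PRDM14_DNMT3B, while Dnmt1_KO was at 0.37 and TKO at 0.14. It fell by 1.35 in PRDM14 and rose by 1.63 in TKO (adjusted p 0.000672 and 0.0016, limma). In bulk RNA, fewer cells of a type and less RNA per cell cannot be told apart. Of 6 fibroblast markers, 3 were above background on all arrays and 1 on none. Their summed level was 1.84 to 1.98 in J1, 0.30 to 0.40 in PRDM14, 0.65 to 1.01 in PRDM14_DNMT3B, 3.23 to 3.24 in Dnmt3b_KO, 2.94 in Dnmt1_KO and 2.85 in TKO. The sum was highest in Dnmt3b_KO, where Col4a1 differed from J1 by 0.91, against 1.87 in Dnmt1_KO and 1.63 in TKO. In these knockout lines the means of Col1a1, Col1a2 and Thy1 were above J1, and those of Col3a1 and Dcn were not. The 4 primitive endoderm markers summed to -1.82 to -1.80 in J1, -1.41 to -1.32 in PRDM14, -0.82 to -0.78 in PRDM14_DNMT3B, -2.12 to -2.07 in Dnmt3b_KO, -1.53 in Dnmt1_KO and 0.61 in TKO. In TKO Gata4 was at -1.60, Gata6 at -0.73 and Sox17 at -1.29, against at most -3.98, -3.80 and -4.54 in J1. Sox7 was at -2.44 in TKO and at a mean of -3.07 in J1, but higher in PRDM14 (-2.24) and PRDM14_DNMT3B (-1.69). Gata4, Gata6, Sox17 and Sox7 were above background on 9, 6, 2 and 8 arrays. The part of either marker set in the results of this list was not tested.

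Of all members, 10.9% were called higher and 9.63% lower in Dnmt3b_KO against J1, and 9.05% and 20.6% in Dnmt1_KO. The other autosomes had 12.5% and 11.3% in Dnmt3b_KO, and 11.6% and 18.2% in Dnmt1_KO. The plain medians of all members were -0.054 and -0.214 in these lines, beside -0.078 and -0.185 on the other autosomes. The list counts stand beside these values. The differentiated lineage list had 3 of 8 members higher and 0 lower in Dnmt3b_KO, with a median of 0.42, and 4 higher and 2 lower in Dnmt1_KO, with a median of 0.91. The replication list had 1 of 19 higher and 0 lower in Dnmt3b_KO, and 0 higher and 6 lower in Dnmt1_KO. RNA processing and translation had 0 of 21 higher and 3 lower in Dnmt3b_KO, and 0 and 9 in Dnmt1_KO.

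**Figure D5:**
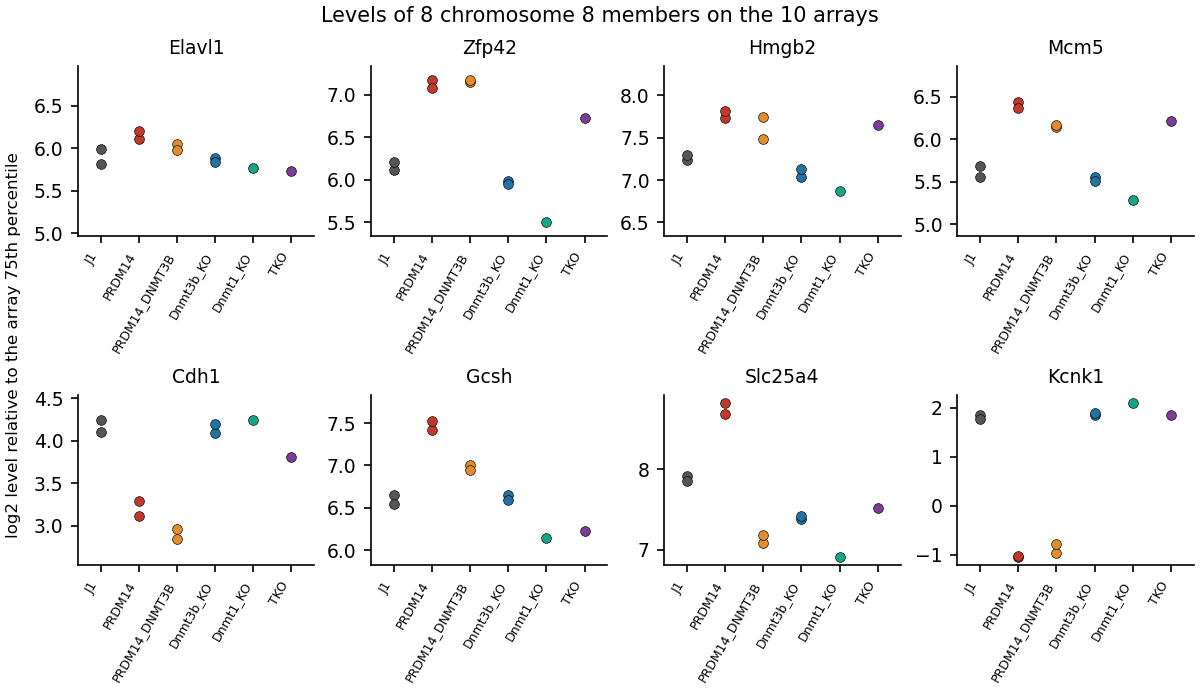
Levels of 8 members (y axes, log2 relative to the 75th percentile of the array) in the 6 groups (x axes), 1 point per array. Zfp42 and Mcm5 of the middle part are higher in the PRDM14 lines and TKO than in J1. Against J1, Hmgb2 passed only in PRDM14, and only with all arrays of J1 and PRDM14. Against Dnmt3b_KO, Hmgb2 differed by 0.69 in PRDM14, 0.53 in PRDM14_DNMT3B and 0.57 in TKO. Gcsh of the last part is higher in the PRDM14 lines and at 6.23 in TKO, and Cdh1 and Kcnk1 are lower in the PRDM14 lines.

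Beyond the lists, the members called with the largest differences were named. Crispld2 at 122.58 Mb, a secreted protein gene, was the highest in PRDM14. It was at -1.15 and -1.50 in J1, 3.54 and 3.53 in PRDM14, 1.37 and 1.33 in PRDM14_DNMT3B, -1.06 and -1.25 in Dnmt3b_KO, -1.58 in Dnmt1_KO and -1.61 in TKO. It rose by 4.86 and 2.68 (SE 0.14 for both, adjusted p 2.42e-05 and 0.000103, limma), with no overlap between the PRDM14 lines and the rest.

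The alpha-defensin cluster near 22 Mb, genes of antimicrobial peptides best known from intestinal Paneth cells, rose farthest in PRDM14_DNMT3B. Of 13 alpha-defensin names on the array, 4 were members, and all 4 were called higher in PRDM14 and in PRDM14_DNMT3B, with differences from 3.28 to 3.74 and from 4.25 to 4.84. Defa3 at 22.43 Mb was at -1.46 and -1.86 in J1, 2.23 and 1.93 in PRDM14, 3.35 and 3.01 in PRDM14_DNMT3B, 0.22 and -0.16 in Dnmt3b_KO, -1.08 in Dnmt1_KO and -0.61 in TKO. PRDM14_DNMT3B exceeded PRDM14 by 0.96 to 1.24 over the 4 genes, and Dnmt3b_KO exceeded J1 by 1.40 to 1.73, with all 4 called in both. The genes of this cluster are near-identical copies whose probes can share signal, so they are not 4 separate results and which copy was expressed is uncertain. A least-squares split of PRDM14 against J1, chosen on these same values, set off 21 members from 19.69 to 23.24 Mb, with a median of 1.16. The stretch holds the cluster and also other members nearer its start. Among these, ENSMUST00000136929 and LOC100504289 differed by 1.13 and 1.18 and A_55_P2176871 by -0.08. The median is thus not that of the defensins.

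Among the members that fell, Kcnk1 at 128.55 Mb, a potassium channel gene, was the lowest in both PRDM14 lines. It was at 1.84 and 1.77 in J1, -1.05 and -1.03 in PRDM14, -0.96 and -0.78 in PRDM14_DNMT3B, 1.85 and 1.90 in Dnmt3b_KO, 2.10 in Dnmt1_KO and 1.85 in TKO. The 4 arrays of the PRDM14 lines stood apart, by -2.84 and -2.67 (SE 0.09 for both, adjusted p 3.16e-05 and 4.29e-05, limma). Cpe at 67.07 Mb, a carboxypeptidase of peptide hormone processing, fell by 2.73 in PRDM14, and Tox3 at 92.77 Mb, a chromatin-associated regulator, fell by 2.43 (adjusted p 0.000172 and 0.000256, limma).

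The 5 members with the largest increases in TKO were Ushbp1, Snx25, Dusp26, Thsd1 and Gdf1. Each was called higher in Dnmt1_KO and in both PRDM14 lines as well, and Snx25, Thsd1 and Gdf1 also in Dnmt3b_KO. Of all members, 9.05% were called higher in Dnmt1_KO, 52.2% in PRDM14, 45.0% in PRDM14_DNMT3B and 10.9% in Dnmt3b_KO. The genes were picked on their difference from J1, and a low J1 value enters all these calls, so they are not separate results. The Ushbp1 call in PRDM14_DNMT3B ended without J1 replicate 2 or either PRDM14_DNMT3B array. The J1 arrays had Ushbp1, at 73.91 Mb, at -2.14 and -2.28, and the PRDM14, PRDM14_DNMT3B and Dnmt3b_KO arrays from -2.59 to -1.32. It stood at 0.41 in Dnmt1_KO and 1.71 in TKO. Snx25 at 47.12 Mb, a sorting nexin, was at -1.37 and -1.55 in J1, 0.48 and 0.71 in PRDM14, 0.52 and 0.60 in PRDM14_DNMT3B, -0.45 and -0.15 in Dnmt3b_KO, 0.61 in Dnmt1_KO and 2.08 in TKO. Gdf1 at 72.86 Mb, a growth factor of left-right patterning, was at 2.39 and 2.45 in J1 and between 3.40 and 4.93 in every other line. The differences of TKO from J1 were 3.92, 3.54 and 2.51 for these 3 genes (adjusted p 0.000245, 0.000325 and 0.000251, limma). Cdyl2 at 119.10 Mb, a chromodomain gene, had the largest fall in TKO. It was at -0.71 there and at -0.86 in Dnmt1_KO, against 0.95 and 1.39 in J1 and 0.76 to 1.93 in the other lines, and fell by 1.88 (adjusted p 0.00767, limma).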

How the data were processed

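The 10 one-colour arrays were read from the scanner files as deposited. The probe intensity in them is background-subtracted and processed by Agilent Feature Extraction 10.7.3.1, per the file headers, and probe coordinates are mm9. The authors made a second deposited table of log2 values, whose steps no header states. Its columns share 1 median, 4.243, and differ from quantile-normalized intensities by at most 0.246. It served as an alternative. The submitters' processing notes name limma.

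Each log2 intensity was scaled to the 75th percentile of its array, outlier spots were dropped, and spots of a probe were averaged. Calls came from limma 3.58.1 (R 4.3.3; lmFit and eBayes over all 10 arrays, no covariates, 4 residual degrees of freedom) with Benjamini-Hochberg adjustment over 23787 rows. Dnmt1_KO and TKO were assumed to vary like the replicated lines. The fit was tested on simulated arrays with independent noise, for PRDM14 against J1 alone. Arrays that vary together and lines without replicates were not covered by it. Summaries used Python 3.11.15 with pandas 2.3.3.

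The chromosome, its role lists and its tests were chosen with earlier results of these data known. Named genes were the brightest member of each 10 Mb bin, up to 4 members a list, the 5 highest and 5 lowest called in PRDM14, PRDM14_DNMT3B and TKO against J1, the members beside the TKO borders and those beside the detection limit. Symbols of 656 members came from their accessions through the RefSeq table on GRCm38.p6, and 80 changed. Upstream windows matched 459 of 646 coding members (71.05%), so a check of promoter properties over the members is void. Alternatives were other background corrections, normalizations, probe filters, slide and replicate blocks, arrays left out, and bin sizes. Members that the rule picks and the text does not name enter the counts, and 1 landmark is not reported here.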

Additional observations from a re-analysis of the deposited data

How the results depend on the processing

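The shift in PRDM14, PRDM14_DNMT3B and TKO against J1 was above 0 under all alternatives run, and its size moved with some of them. With normexp background correction it was 0.406, 0.35 and 0.177 in these lines and -0.014 in Dnmt1_KO, and against Dnmt3b_KO it was 0.348, 0.299 and 0.18. TKO gave 0.163 against Dnmt1_KO and -0.142 against PRDM14. Quantile normalization gave 0.439 and 0.391 in the PRDM14 lines, and 0.222 and -0.162 for TKO against Dnmt1_KO and PRDM14. The authors' deposited table gave 0.442 in PRDM14, and 0.233 and -0.158 for the same TKO comparisons. With probes above background in at least 1 group, PRDM14_DNMT3B gave 0.389. With no filter on dim probes, the values were 0.42, 0.168 and 0.136 against J1, 0.4, 0.116 and 0.046 against Dnmt3b_KO, -0.104 for PRDM14_DNMT3B against PRDM14, and 0.166 for TKO against Dnmt1_KO, where 90 members were called instead of 186. The cause was not tested. A mean trimmed by 10% gave 0.435 and 0.386 in the PRDM14 lines and 0.257 for TKO against Dnmt1_KO. Slide as a block gave 0.213 for TKO against J1 and 0.188 against Dnmt3b_KO, and within slide 1 these were 0.221 and 0.183. Within slide 2, PRDM14_DNMT3B gave 0.396 against Dnmt3b_KO. Slide as a random block, added after seeing the data, gave -0.172 for TKO against PRDM14. Coding members alone, also added then, gave 0.523, 0.472, 0.276 and -0.052 in PRDM14, PRDM14_DNMT3B, TKO and Dnmt1_KO against J1, 0.518, 0.459 and 0.245 against Dnmt3b_KO, and 0.274 and -0.232 for TKO against Dnmt1_KO and PRDM14. In bins of 20 Mb the highest minus the lowest bin was 0.228, 0.204 and 0.509 in PRDM14, PRDM14_DNMT3B and TKO. Brd7, whose 2 probes disagree, changed sign with the mean of its probes, to -0.00 in PRDM14_DNMT3B, -0.18 in TKO and -0.44 in Dnmt3b_KO.

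The replicate block raised the calls of Dnmt3b_KO against J1 from 177 to 273 and moved no other count of calls by over 1.5 times. Same-numbered arrays deviated together, with correlations of 0.255 to 0.511 over 6 pairs of lines, including 0.255 to 0.343 for PRDM14, whose arrays lie on slides of no other line. With 2 arrays a line and no label that a number marks a shared culture or day, the numbers were not taken as a pairing. It could not be fitted for Dnmt1_KO and TKO, which carry no number.

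Leaving out 1 array at a time gave shifts of 0.455 to 0.489 for PRDM14, 0.375 to 0.439 for PRDM14_DNMT3B and 0.221 to 0.236 for TKO against J1, 0.429 to 0.451, 0.366 to 0.391 and 0.183 to 0.222 for these against Dnmt3b_KO, -0.038 to -0.02 for PRDM14_DNMT3B against PRDM14 and -0.191 to -0.159 for TKO against PRDM14. The calls ran from 72 (without Dnmt3b_KO replicate 1) to 132 for Dnmt3b_KO against J1 (all arrays 177), and from 161 (without J1 replicate 2) to 208 for Dnmt1_KO against J1 (all arrays 256). They ran from 105 (without Dnmt3b_KO replicate 2) to 204 for TKO against Dnmt3b_KO (all arrays 214), from 56 (without PRDM14 replicate 1) to 178 for PRDM14_DNMT3B against PRDM14 (all arrays 193), and from 97 (without a PRDM14 array) to 148 for TKO against Dnmt1_KO (all arrays 186). These fits have fewer arrays.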
